A study of Rattus norvegicus with 83 samples.

Results

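A set of 10 genes carried by tissue macrophages was followed through the deposited count table of a rat study: C1qa, C1qb, C1qc, Lyz2, Mrc1, Lyve1, Csf1r, Cd68, Tyrobp and Cd74. They were chosen by symbol, each has 1 row, and they are 10 of the 17483 genes listed. The study gave Sprague-Dawley dams daily oral doses from gestational day 7 of either corn oil (Vehicle) or a compound that inhibits thyroid peroxidase, the enzyme that iodinates thyroid hormone precursors. Offspring tissue, labelled testis, was profiled by BRB-seq, in which RNA from many samples is barcoded, pooled and sequenced at its 3′ end. Methimazole was given at 8 or 16 mg/kg/day (MMI8 and MMI16) and amitrole at 25 or 50 mg/kg/day (Ami25 and Ami50). Fetuses of gestational day 21 (GD21) gave 6 libraries in each of the 5 groups. Pups of postnatal day 16 (PD16) gave 10 Vehicle, 10 MMI8, 10 MMI16, 11 Ami25 and 12 Ami50 libraries. Dosing ran on after birth, to pup day 22 in the labels' protocol, so it covered the age at which the PD16 pups were sampled. The labels do not say which offspring shared a litter, so the p-values below measure only the spread between these libraries.

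Macrophages that live in solid organs engulf dying cells, process antigen and supply complement. C1qa, C1qb and C1qc encode the 3 chains of C1q, the recognition unit of the classical complement pathway, and macrophages are a main source of all of them. Csf1r is the receptor for the growth factor on which most tissue macrophages depend, Tyrobp (DAP12) is the signalling adaptor of several myeloid receptors, and Lyz2 encodes lysozyme. Mrc1 (CD206, the mannose receptor) and Lyve1 (a hyaluronan receptor) mark subsets of resident macrophages and are also carried by lymphatic and sinusoidal endothelium. Cd68 is a lysosomal glycoprotein, and Cd74 is the invariant chain that escorts MHC class II molecules.

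Promoter sequence is shown for 4 genes whose levels went different ways in the pups, Mrc1 on one side and Lyz2, C1qa and C1qb on the other, so that their upstream letters can be compared. Capitals mark AGGAAG, a core recognised by PU.1 and other ETS factors, or its reverse complement CTTCCT. Each run is the 250 bases before the annotated gene start in RefSeq (GRCr8), 5′ to 3′ on the gene's own strand, and positions are counted back from that start.
Mrc1: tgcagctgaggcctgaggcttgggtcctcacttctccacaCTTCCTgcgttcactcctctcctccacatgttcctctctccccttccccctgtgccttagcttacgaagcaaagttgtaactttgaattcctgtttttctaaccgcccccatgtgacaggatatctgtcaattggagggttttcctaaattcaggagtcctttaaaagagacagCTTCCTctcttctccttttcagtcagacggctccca
Lyz2: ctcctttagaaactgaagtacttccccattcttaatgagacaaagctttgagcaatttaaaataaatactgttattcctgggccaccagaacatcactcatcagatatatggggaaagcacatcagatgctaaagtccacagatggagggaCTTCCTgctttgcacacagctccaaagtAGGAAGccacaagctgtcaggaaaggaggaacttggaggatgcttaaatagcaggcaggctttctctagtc
C1qb: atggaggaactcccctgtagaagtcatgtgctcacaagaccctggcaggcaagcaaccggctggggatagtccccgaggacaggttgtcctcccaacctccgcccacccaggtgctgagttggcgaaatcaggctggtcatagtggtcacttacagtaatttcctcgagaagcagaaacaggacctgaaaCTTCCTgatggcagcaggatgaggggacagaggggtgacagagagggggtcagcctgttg
C1qa: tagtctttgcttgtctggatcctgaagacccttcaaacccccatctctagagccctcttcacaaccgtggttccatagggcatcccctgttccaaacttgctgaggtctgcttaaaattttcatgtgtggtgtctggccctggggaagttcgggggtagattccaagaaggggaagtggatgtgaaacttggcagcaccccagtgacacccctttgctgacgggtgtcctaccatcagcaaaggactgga
The Mrc1 window is chr17:82157475-82157724 on the plus strand, with matches at -210 and -36. The Lyz2 window, chr7:54798012-54798261 on the minus strand, holds matches at -99 and -71. C1qb (chr5:154407828-154408077, minus strand) has 1 match at -60, and C1qa (chr5:154419934-154420183, minus strand) has none. RefSeq entries were found for 8 of the 10 genes, all but C1qc and Tyrobp. The core lay in 5 of these 8 windows (C1qb, Csf1r, Lyve1, Lyz2 and Mrc1), and in 29.5% of 33469 promoter windows of the same length. TGCTGA, the core that MAF factors read, lay in 2 of 8 (C1qa and C1qb), against 15.1% of all windows. AGGTCA, a nuclear receptor half-site, lay in 1 of 8 (Cd74), against 14.1%. TTGCNNAA, a C/EBP form, also lay in 1 of 8 (Lyz2), against 9.22%. Both strands were searched for each motif, and a match is a description of letters, not of a bound site.

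Library totals were 495369 to 1627114 counts at GD21 (median 963356) and 202270 to 1186973 at PD16 (median 492083), so that 1 count was worth 1.04 CPM in the median GD21 library and 2.03 CPM in the median PD16 library. CPM is the count divided by the library total, times 1000000. The tissue label went against the defining transcripts. Over all 83 libraries the germ-cell genes Ddx4 and Sycp3 had 7 and 5 counts, the Sertoli-cell gene Amh 6 and the Leydig-cell gene Insl3 26, whereas inhibin alpha (Inha), which the adrenal cortex also expresses, had 6693 (median 99.7 CPM), the adrenal steroid enzyme Cyp21a1 had 441863 counts and the adrenaline-forming enzyme Pnmt 32226. The macrophage genes are therefore described for the tissue as sampled, under its group labels. Embryonic globins (Hbe1, Hbg1 and Hbz) made up 11.6% to 19.4% of globin counts in the PD16 Vehicle libraries and 8.79% to 22.9% in those of MMI8 and MMI16, but at most 0.368% in Ami25 and Ami50 and at most 0.878% in any GD21 library. That split goes against the PD16 label of the Vehicle and methimazole libraries, and in every comparison of amitrole with them the treatment and whatever set the globin share cannot be told apart. Liver transcripts (Alb at 200 CPM or more) were present in 10 GD21 libraries and 5 PD16 libraries, 8 of the 12 libraries labelled PD16 Ami50 had the Y-linked Eif2s3y under 10 CPM while none elsewhere did, and 1 PD16 MMI16 library had under 0.5 of the median PD16 total. The main test results of the macrophage genes against Vehicle are given with and without these libraries, and the levels and other cell markers with all of them.

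On the summed level of the 10 genes, every GD21 group mean was above the PD16 ones, and the amitrole pups were above the Vehicle and methimazole pups. Single genes departed from that order: Lyve1 (87.0 CPM) and Cd68 (5.61 CPM) had their highest group mean in PD16 Ami50 and Csf1r (37.0 CPM) in PD16 Ami25, while Mrc1 was lower in both amitrole groups than in PD16 Vehicle. Without Mrc1 the sum was 404.5 CPM in PD16 Ami50, against 372 CPM in GD21 Vehicle and 388 CPM in GD21 MMI8. The summed level of the 10 genes was 521 ± 98.2 CPM (SD, n = 6) in GD21 Vehicle and 751 ± 196 CPM (n = 6) in GD21 Ami50. At PD16 it was 233 ± 17.5 CPM (n = 10) in Vehicle, 164 ± 27.8 CPM (n = 10) in MMI8, 178 ± 30.7 CPM (n = 10) in MMI16, 430.4 ± 83.6 CPM (n = 11) in Ami25 and 444 ± 112 CPM (n = 12) in Ami50. In this bulk tissue a lower level cannot be told apart as fewer macrophages or less of each RNA per macrophage.

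Each of the 3 C1q chains had lower group means in the PD16 Vehicle and methimazole pups than in all other groups. Among those pups, the mean of C1qa was highest in Vehicle (6.80 CPM) and lowest in MMI8 (3.59 CPM). C1qb and C1qc had the reverse, at 12.32 and 7.12 CPM in Vehicle and 16.45 and 9.21 CPM in MMI8. The summed level of the 3 chains was 105 CPM in GD21 Vehicle, with group means of 100.1 to 138 CPM in the treated fetuses. In the PD16 Vehicle pups the sum ran from 17.1 CPM through a median of 25.1 CPM to 33.6 CPM, in MMI8 from 16.3 through 28.8 to 40.2 CPM and in MMI16 from 6.21 through 27.6 to 52.2 CPM. In Ami25 the same sum ran from 49.0 CPM through 95.5 CPM to 117 CPM, and in Ami50 from 40.2 through 88.4 to 162 CPM. Every amitrole library therefore lay above the highest Vehicle library on this sum, while the methimazole ranges overlapped it. Within the C1q counts, pooled over a group, C1qb was the largest share in 9 of the 10 groups, at 40.7% to 57.0%, and in GD21 MMI8 it was 41.0% against 43.1% for C1qc. Single-gene depth was modest, with 673, 1547 and 1380 counts of C1qa, C1qb and C1qc over all GD21 libraries and 336, 717 and 547 over all PD16 libraries.

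Lyz2 and the adaptor Tyrobp were also lowest in the PD16 Vehicle and methimazole pups, with MMI8 at the bottom for both, and their PD16 Ami50 means were above those of GD21 Vehicle. The Lyz2 level was 87.2 ± 18.8 CPM (n = 6) in Vehicle fetuses and 29.8 ± 7.20 CPM (n = 10) in Vehicle pups. It was 83.3 ± 25.8 CPM (n = 11) in PD16 Ami25 and 98.3 ± 25.2 CPM (n = 12) in PD16 Ami50. Tyrobp stood at 57.1 ± 9.77 CPM in GD21 Vehicle, 25.9 ± 6.77 CPM in PD16 Vehicle and 63.3 ± 23.4 CPM in PD16 Ami50. In MMI8 and MMI16 pups the group means were 22.8 and 32.7 CPM for Lyz2 and 22.9 and 26.5 CPM for Tyrobp, and both ranges overlapped Vehicle.

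The surface receptors did not share 1 pattern. Lyve1 had nearly equal group means in the fetuses, 78.4 to 85.9 CPM, then 38.5 ± 6.46 CPM in PD16 Vehicle and 87.0 ± 25.4 CPM in PD16 Ami50. Csf1r had the smallest difference between the Vehicle groups of the tested genes, at 20.4 ± 7.71 CPM in GD21 and 16.1 ± 6.04 CPM in PD16. Mrc1 was the exception to the order of the other genes, because at PD16 it was highest in Vehicle, at 86.6 ± 10.0 CPM, and lowest in MMI16, at 12.8 ± 2.99 CPM. Its MMI8, Ami25 and Ami50 means were 28.6, 43.6 and 39.4 CPM, and the spreads of the last 2 groups overlapped each other.

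The antigen-presentation chaperone Cd74 was at 17.0 ± 4.74 CPM in Vehicle fetuses and 8.49 ± 2.93 CPM in Vehicle pups, against 31.3 ± 17.3 CPM in PD16 Ami25 and 29.9 ± 15.3 CPM in PD16 Ami50. Cd68 was near the detection limit. It had 116 counts over all GD21 libraries and 86 over all PD16 libraries, was at 0 in 2 of 30 and 16 of 53 of them, and reached 17.5 CPM at most. It did not pass the filter on low counts in any comparison, so 9 of the 10 genes were tested throughout.

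**Figure D1:**
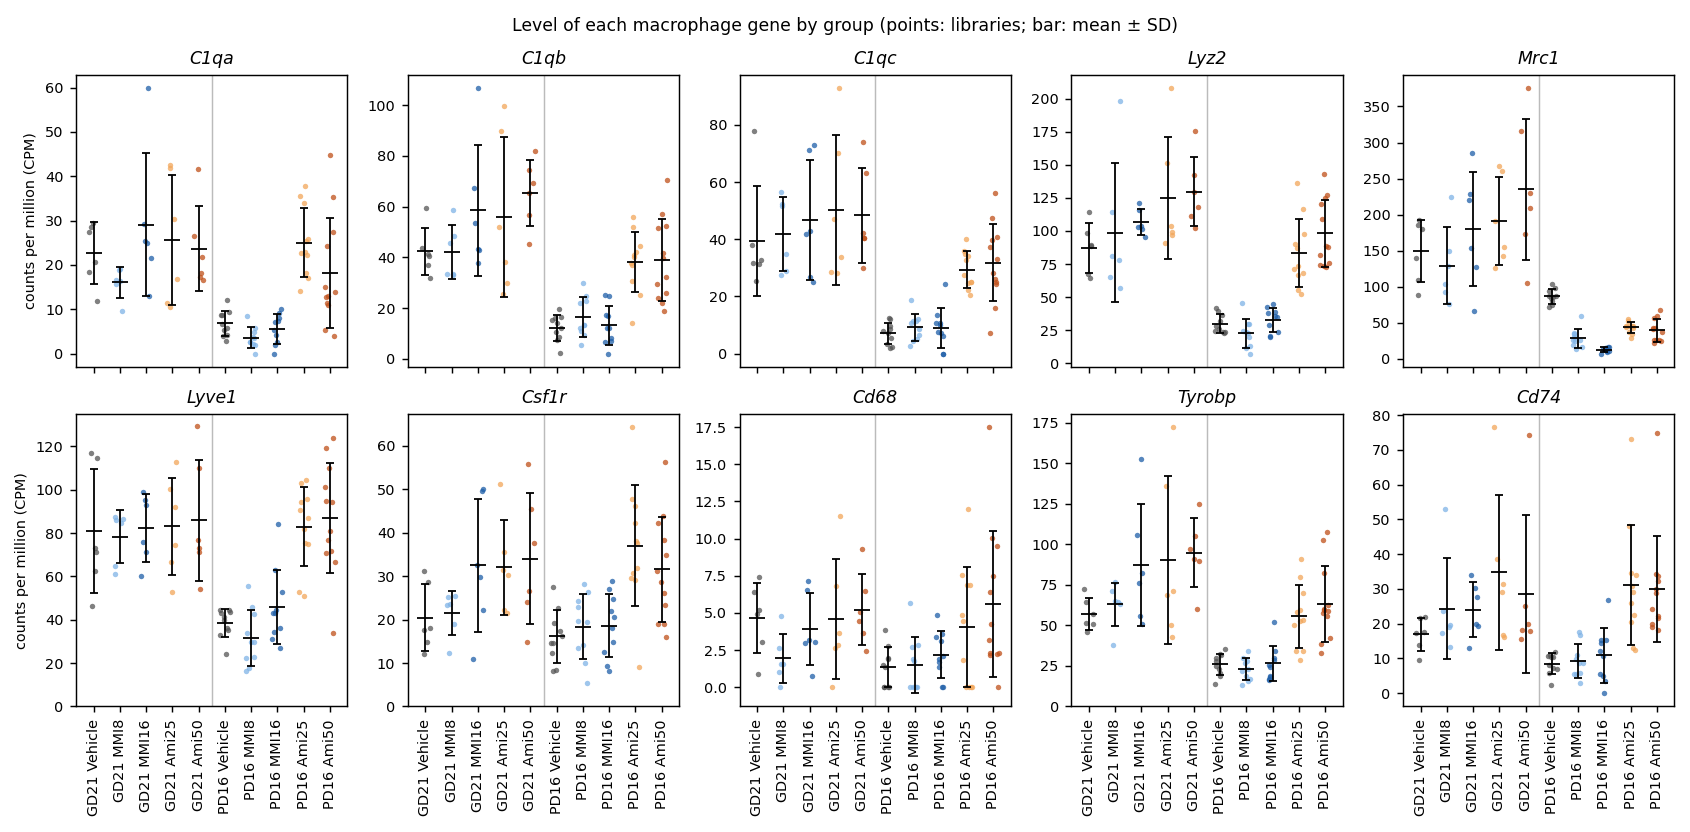
Levels of the 10 macrophage genes (CPM) in each of the 10 groups, with 1 point per library and the group mean and SD. Lyz2, the C1q chains, Lyve1, Tyrobp and Cd74 are low in PD16 Vehicle and both methimazole groups and higher in both amitrole groups, whereas Mrc1 among the pups is highest in Vehicle (86.6 CPM) and lowest in MMI16 (12.8 CPM).

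In the fetuses, none of the 9 tested macrophage genes differed from Vehicle under either compound (edgeR quasi-likelihood test, Benjamini-Hochberg adjusted p under 0.05). The background was equally empty, with 0% of the 6236 genes called in each of the 4 comparisons, which share the 6 Vehicle libraries. Unadjusted p-values under 0.05 were found for 175 genes in MMI8, 210 in MMI16, 579 in Ami25 and 431 in Ami50. DESeq2 called 0, 0, 0 and 22 genes, no macrophage gene among them. In the Ami50 comparison DESeq2 gave an adjusted p for only 5 of the 9 macrophage genes. The median log2 fold change of the 9 genes was 0.11 in MMI8, 0.33 in MMI16, 0.45 in Ami25 and 0.64 in Ami50, while the median over all tested genes lay between -0.01 and 0.01. In MMI16, Ami25 and Ami50 all 9 estimates were above 0, and in MMI8 6 were. Fetal library numbers fell in runs of 41 to 56 and 61 to 90, whose meaning the labels do not give. With the run as a covariate, 9 estimates were above 0 in MMI16, 9 in Ami25, 8 in Ami50 and 4 in MMI8. The medians were then 0.28 in MMI16, 0.37 in Ami25, 0.445 in Ami50 and -0.01 in MMI8. Without the libraries holding liver transcripts 8 of 9 were above 0 in MMI16 (Lyve1 at -0.14), 8 in Ami25 (C1qc at -0.07), 8 in Ami50 (C1qa at -0.03) and 4 in MMI8, and the medians were 0.22, 0.28, 0.36 and -0.03.

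Several fetal estimates had an unadjusted p under 0.05 that did not survive adjustment. In Ami50, C1qb ran from 45.3 CPM through 67.3 to 82.1 CPM against 31.7, 40.9 and 59.6 CPM in Vehicle, a log2 fold change of 0.64. Tyrobp ran from 60.1 CPM through 93.8 to 125 CPM in Ami50 against 46.2, 54.2 and 72.5 CPM in Vehicle, a log2 fold change of 0.74. Both ranges overlapped those of Vehicle. With Lyz2 (0.59), Mrc1 (0.66) and Csf1r (0.74) these were the 5 genes with an unadjusted p under 0.05 in Ami50, at adjusted p of 0.605 to 0.718 in edgeR. In Ami25 the corresponding genes were Lyz2 (log2 fold change 0.54), Csf1r (0.72), Tyrobp (0.70) and Cd74 (1.08), with adjusted p of 0.473 to 0.522. The Cd74 value was 0.43 without the libraries holding liver transcripts, 1 of which had the highest Cd74 level of the Ami25 fetuses (76.5 CPM). In MMI16 the single such gene was Tyrobp (log2 fold change 0.61, unadjusted p = 0.0345, adjusted p = 1 in edgeR). No gene of the 10 had ranges that did not overlap in any of these 4 comparisons, against 0.102%, 0.11%, 0.31% and 0.183% of all genes with a count. Between doses, and between Ami50 and MMI16, edgeR again called 0 of 6236 genes, and DESeq2 called 0 between the methimazole doses (394 unadjusted in edgeR), 0 between the amitrole doses (203) and 3 between Ami50 and MMI16 (451), where the numbers in brackets are genes with an unadjusted p under 0.05.

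In the methimazole pups, Mrc1 fell, and none of the 8 other tested macrophage genes passed the test. In PD16 Vehicle the Mrc1 level ran from 71.3 CPM through a median of 86.0 CPM to 104 CPM. In MMI8 it ran from 13.6 through 26.4 to 59.3 CPM, and in MMI16 from 7.22 through 13.1 to 16.8 CPM. Every MMI8 and MMI16 library lay below the lowest Vehicle library, and MMI16 was the tighter of the 2 groups. In edgeR, Mrc1 was 3.10-fold lower in MMI8 (log2 fold change -1.63, SE 0.16, adjusted p = 6.15e-13) and 6.61-fold lower in MMI16 (-2.73, SE 0.18, adjusted p = 3.14e-20). It was 1 of 9 genes called in each comparison, where 8.36% and 8.11% of 4906 genes were called, 6.89% and 7.26% as lower and 1.47% and 0.856% as higher. Its ranges were the only ones of the 10 that did not overlap Vehicle, against 1.17% and 1.46% of genes with a count.

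The 8 other tested genes gave log2 fold changes of -0.92 to 0.38 in MMI8 and of -0.32 to 0.52 in MMI16. The lowest was C1qa in MMI8, where 0 to 8.47 CPM (median 3.12 CPM) stood beside 2.94 to 12.2 CPM (median 6.26 CPM) in Vehicle, with overlapping ranges, a log2 fold change of -0.92, an SE of 0.43 and an adjusted p of 0.243 in edgeR. In MMI16 the adjusted p of the 8 was 0.563 to 0.915. Their median log2 change together with Mrc1 was -0.20 in MMI8 and 0.14 in MMI16, beside 0.01 and 0.07 over all tested genes. The summed level of the 9 genes other than Mrc1 was 146 ± 15.6 CPM in Vehicle, 136 ± 23.5 CPM in MMI8 and 165 ± 32.1 CPM in MMI16, with overlapping ranges.

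Between the methimazole doses Mrc1 was also the single gene of the 9 called, where 2.08% of 4906 genes were called and 1.9% as lower. It was 2.13-fold lower in MMI16 than in MMI8 (log2 fold change -1.09, SE 0.22, adjusted p = 0.00106 in edgeR). The ranges overlapped, and 5 of the 10 MMI16 libraries lay below the lowest MMI8 library. When the 20 libraries of these doses were fitted alone, Mrc1 did not pass the low-count filter and the comparison gave 0 macrophage genes.

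Of 11 tested genes on an endothelial list, 2 were lower and none higher in each methimazole group, beside the 6.89% (MMI8) and 7.26% (MMI16) of all genes called lower. These were Pecam1 (a junction protein, log2 fold change -1.92 in MMI8 and -1.96 in MMI16) and Kdr (a VEGF receptor, -1.38 and -1.84). The summed level of that list was 700 to 982 CPM in Vehicle, 444 to 638 CPM in MMI8 and 449 to 751 CPM in MMI16. Without the MMI16 libraries of low total or with liver transcripts, Mrc1 was at -2.71 and -2.74 in MMI16. The part of endothelial RNA in the Mrc1 difference was not tested. Lyve1, which endothelium also carries, was not called in either group, with log2 fold changes of -0.34 and 0.16.

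**Figure D2:**
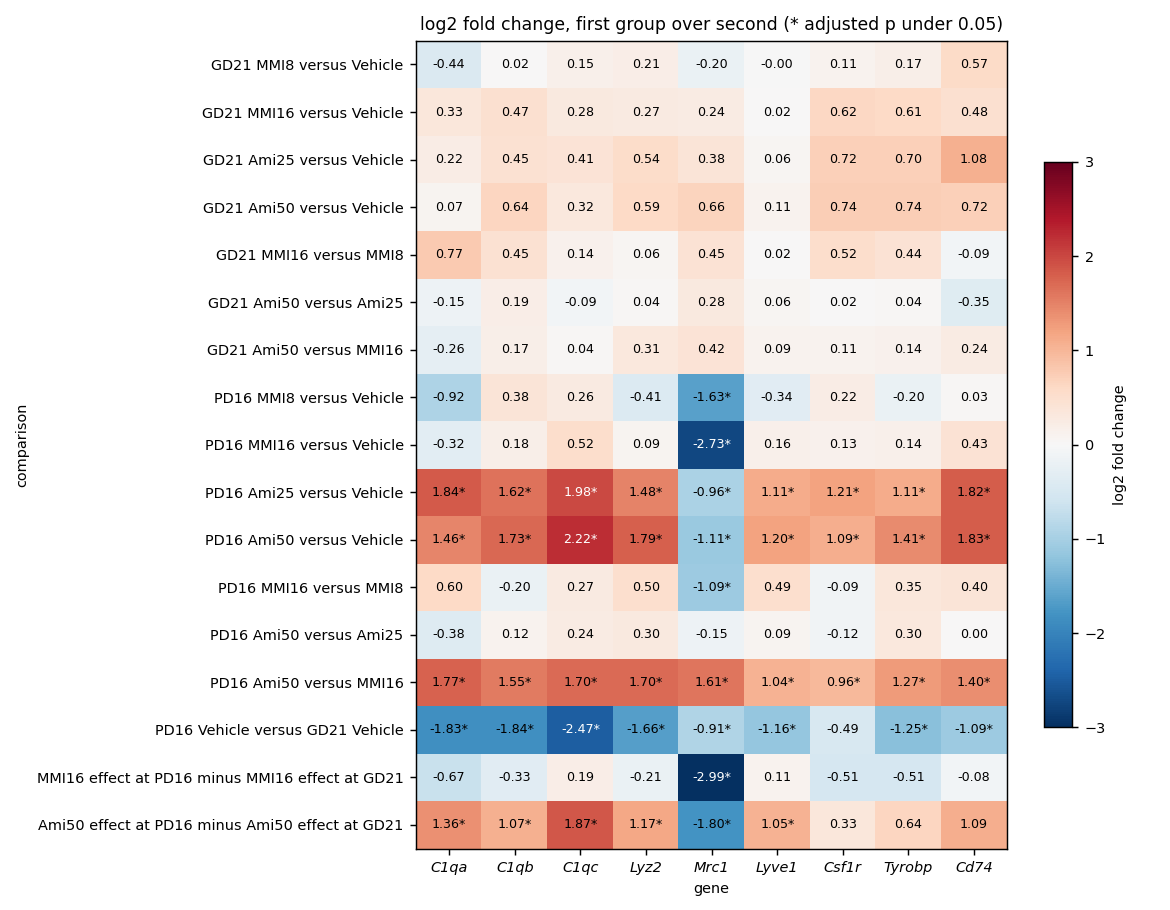
Heat map of the log2 fold change of the 9 tested macrophage genes (columns) in the 17 comparisons (rows), blue where the first group is lower, red where it is higher, with a star at an adjusted p under 0.05. No GD21 cell has a star, Mrc1 is blue with a star in all 4 PD16 comparisons with Vehicle, and the other 8 genes are red with a star in both amitrole ones.

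In the amitrole pups 8 of the 9 tested macrophage genes rose and Mrc1 fell, at both doses. The background in these comparisons was wide, since 55.4% of 4906 genes were called in Ami25 (27.9% higher, 27.5% lower) and 53.5% in Ami50 (27.1% higher, 26.5% lower). The median log2 fold change of the 9 genes was 1.48 in Ami25 and 1.46 in Ami50, against 0.01 and 0.02 over all tested genes. The 2 comparisons share the 10 Vehicle libraries.

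Among the C1q chains, C1qc ran from 20.6 CPM through 27.4 to 39.9 CPM in Ami25 and from 7.31 through 30.6 to 56.3 CPM in Ami50, against 1.93, 7.61 and 12.5 CPM in Vehicle. All Ami25 libraries and 11 of the 12 Ami50 libraries lay above the highest Vehicle library. C1qc was 3.96-fold higher in Ami25 (log2 1.98, SE 0.30, adjusted p = 6.56e-08 in edgeR) and 4.67-fold higher in Ami50 (2.22, SE 0.28, adjusted p = 9.9e-10). C1qb was 3.07-fold and 3.32-fold higher, and C1qa 3.58-fold and 2.75-fold higher, with 11 of 11 and 8 of 12 libraries above the Vehicle maximum for C1qa.

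The lysozyme gene separated amitrole from Vehicle pups completely. Lyz2 ran from 52.5 CPM through 73.8 to 136 CPM in Ami25 and from 72.8 through 88.0 to 143 CPM in Ami50, against 22.9, 27.0 and 41.8 CPM in Vehicle. No amitrole library overlapped Vehicle. The gene was 2.79-fold higher in Ami25 (log2 1.48, SE 0.18, adjusted p = 2.57e-10 in edgeR) and 3.45-fold higher in Ami50 (1.79, SE 0.17, adjusted p = 1.71e-13).

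The receptors went in both directions. Lyve1 was 2.15-fold and 2.29-fold higher and Csf1r 2.31-fold and 2.13-fold higher in Ami25 and Ami50. Mrc1, in contrast, ran from 28.4 CPM through 45.3 to 55.5 CPM in Ami25 and from 21.7 through 39.4 to 67.4 CPM in Ami50, below the 71.3 CPM of the lowest Vehicle library in every case. It was 1.95-fold lower in Ami25 (log2 -0.96, SE 0.14, adjusted p = 2.9e-08 in edgeR) and 2.16-fold lower in Ami50 (-1.11, SE 0.14, adjusted p = 5.04e-10).

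Tyrobp was 2.16-fold higher in Ami25 and 2.67-fold higher in Ami50 (log2 1.11 and 1.41), with 8 of 11 and 11 of 12 libraries above the Vehicle maximum. Cd74 ran from 12.3 CPM through 29.0 to 73.3 CPM in Ami25 and from 18.3 through 26.4 to 74.9 CPM in Ami50, against 2.44, 9.27 and 11.8 CPM in Vehicle, with no overlap. It was 3.54-fold and 3.55-fold higher (log2 1.82 and 1.83, adjusted p = 1.47e-07 and 1.01e-07 in edgeR). Counting all 10 genes, 6 had ranges that did not overlap Vehicle in Ami25 (C1qa, C1qc, Lyz2, Mrc1, Lyve1 and Cd74) and 3 in Ami50 (Lyz2, Mrc1 and Cd74), against 5.32% and 5.3% of genes with a count.

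All 9 calls held at both doses without the libraries that stood apart. Without those holding liver transcripts the 8 rises in Ami50 were 0.92 (Csf1r) to 2.13 (C1qc) on the log2 scale and Mrc1 was at -1.24, and in Ami25 they were 1.05 (Lyve1) to 1.94 (C1qc) with Mrc1 at -0.98. Without the 8 libraries low in Eif2s3y the rises were 1.12 (Lyve1) to 2.53 (C1qc) and Mrc1 was at -1.14.

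The 2 amitrole doses gave no difference that passed the test. Of 4906 genes, 0 were called by edgeR (230 at an unadjusted p under 0.05) and 0 by DESeq2. The macrophage genes ranged from a log2 difference of -0.38 (C1qa, SE 0.22) to 0.30 (Tyrobp, SE 0.19) for Ami50 against Ami25, with Lyz2 also at 0.30 (SE 0.15, adjusted p = 0.899 in edgeR). A p above the threshold does not show that the doses gave equal levels.

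Set against the high methimazole dose, the Ami50 pups had more of all 9 tested macrophage genes, Mrc1 included. In that comparison 47.5% of genes were called, 22.6% as higher in Ami50. Mrc1 was 3.06-fold higher in Ami50 than in MMI16 (log2 1.61, SE 0.20, adjusted p = 6.86e-10 in edgeR), since 21.7 to 67.4 CPM did not overlap 7.22 to 16.8 CPM. The other log2 differences were 1.77 for C1qa, 1.55 for C1qb, 1.70 for C1qc, 1.70 for Lyz2, 1.04 for Lyve1, 0.96 for Csf1r, 1.27 for Tyrobp and 1.40 for Cd74. Ranges did not overlap for 2 of the 10 genes, Lyz2 and Mrc1, against 2.33% of genes with a count. The compounds were given at different doses, so these are differences between groups as dosed.

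Between the untreated stages, 8 of the 9 tested genes were lower in PD16 Vehicle than in GD21 Vehicle, where 46.5% of 6287 genes were called, 22.1% as lower and 24.4% as higher. C1qc ran from 25.3 CPM through 32.2 to 78.0 CPM in the 6 fetuses against 1.93, 7.61 and 12.5 CPM in the 10 pups, without overlap, and was 5.53-fold lower (log2 -2.47, SE 0.32, adjusted p = 7.39e-10 in edgeR). Lyz2 was 3.15-fold lower, Tyrobp 2.38-fold, Lyve1 2.23-fold, Cd74 2.13-fold and Mrc1 1.88-fold (log2 -0.91, SE 0.20, adjusted p = 0.000122). C1qa and C1qb gave log2 fold changes of -1.83 and -1.84. Csf1r was not called (log2 -0.49, SE 0.28, adjusted p = 0.149 in edgeR). The median of the 9 was -1.25 against 0.04 over all genes, and 5 of the 10 genes had ranges that did not overlap (C1qb, C1qc, Lyz2, Lyve1 and Tyrobp), against 8.15%. Neutrophil genes were lower in 8 of 9 tested, hepatocyte genes in 13 of 13 and red-cell genes in 9 of 10, and their part was not tested. Without the libraries holding liver transcripts, 3 of the 6 fetal ones, the same 8 genes were called, from -0.80 (Mrc1) to -2.69 (C1qc). The embryonic globin share given above went against the PD16 label in these Vehicle pups.

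The difference between stages was also tested directly for the high doses. For methimazole, the MMI16 effect at PD16 minus that at GD21 was called for Mrc1 alone among the 9 genes, at -2.99 on the log2 scale (SE 0.35, adjusted p = 6.33e-11 in edgeR), where 5.22% of 6287 genes were called, 5.11% as lower. The embryonic globin share went against the PD16 label in the Vehicle and the MMI16 pups of that comparison. For amitrole, 32.8% of genes were called, 16.4% in each direction. The PD16 Ami50 and Vehicle libraries also differed in embryonic globin share, and whatever set that share cannot be told apart from the treatment here. Among the macrophage genes, 5 had a higher Ami50 effect in pups than in fetuses: C1qc (1.87, SE 0.42), C1qa (1.36, SE 0.41), Lyz2 (1.17, SE 0.28), C1qb (1.07) and Lyve1 (1.05, SE 0.25). Mrc1 had a lower one (-1.80, SE 0.30, adjusted p = 9.48e-07). Cd74 (1.09, adjusted p = 0.0703), Tyrobp (0.64, 0.139) and Csf1r (0.33, 0.534) did not pass in edgeR. The C1qa difference missed the threshold without libraries holding liver transcripts (1.09, adjusted p = 0.0508), and the C1qb difference missed it with no filter on low counts (1.07, adjusted p = 0.0534). For Cd74 the difference passed without the liver libraries, at 1.85 (adjusted p = 0.000982).

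Relative to the rest of the list, Mrc1 was out of step in the pups. It made up 37.2% ± 3.92 (SD, n = 10) of the counts of the 10 genes in PD16 Vehicle, 17.2% ± 6.32 in MMI8, 7.51% ± 2.62 in MMI16, 10.2% ± 1.13 in Ami25 and 8.89% ± 2.80 in Ami50. Fetal group means of that share ran from 25.1% to 30.3%. Per C1q count, Mrc1 counts numbered 0.918 to 1.95 in the GD21 Vehicle libraries, 2.25 to 5.92 in PD16 Vehicle, 0.381 to 0.595 in PD16 Ami25 and 0.222 to 1.20 in PD16 Ami50. PD16 Vehicle thus lay wholly above GD21 Vehicle and wholly above both amitrole groups on this ratio. In each methimazole group 9 of 10 libraries lay below the lowest Vehicle library. Few C1q counts stand behind these ratios at PD16, with 174 over all Vehicle, 128 over all MMI8 and 166 over all MMI16 libraries. Single-library ratios in these groups therefore carry counting error. In the methimazole pups the lower ratio came with a C1q sum that overlapped Vehicle, and in the amitrole pups with a higher C1q sum and a lower Mrc1 level.

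**Figure D3:**
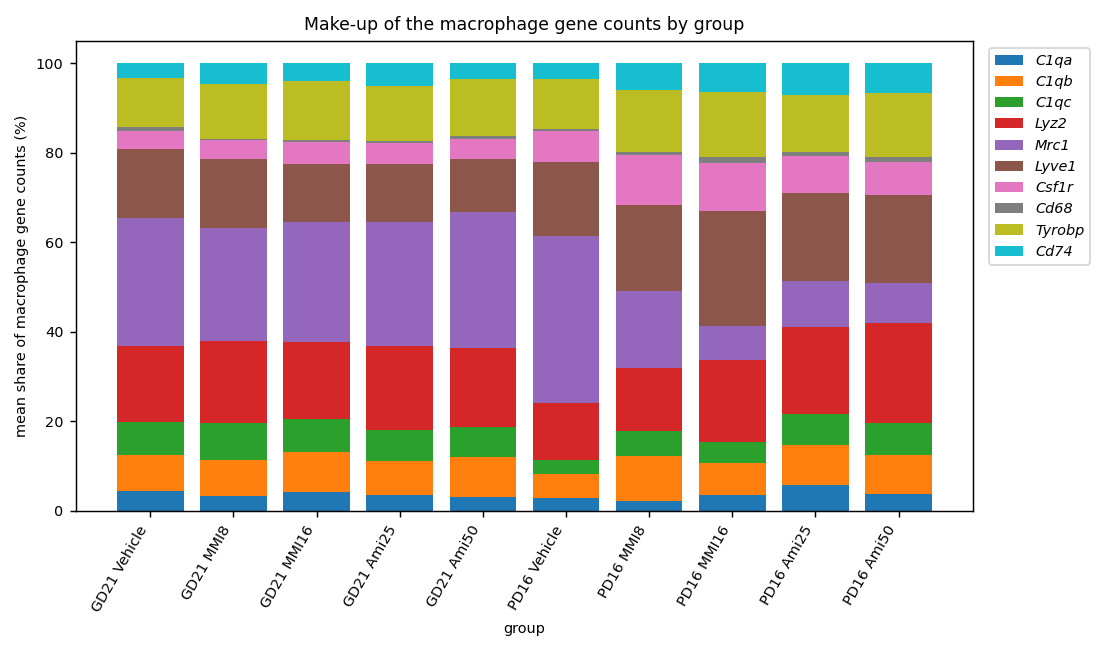
Stacked bars of the share of the counts of the 10 macrophage genes taken by each gene, as the mean over the libraries of each group in percent. The Mrc1 share falls from 37.2% in PD16 Vehicle to 7.51% in PD16 MMI16 and 8.89% in PD16 Ami50.

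Other genes of macrophages and of the pathways around these members were counted from lists by function. Of 32 further macrophage genes listed, 30 have a row and 7 had enough PD16 counts to be tested. In the Ami50 pups 6 of the 7 rose and none fell, among them Ctss (cathepsin S, which trims the invariant chain, 3.08-fold), Laptm5 (a lysosomal membrane protein of blood cells, 2.52-fold) and Lgmn (the lysosomal protease legumain, 2.47-fold). In Ami25 6 of 7 rose, in MMI16 and MMI8 none of 7 was called by edgeR. In PD16 Vehicle against GD21 Vehicle 9 of 10 were lower, led by Cd163, a haemoglobin scavenger receptor (log2 -3.56), Pf4 (-1.55) and Ctss (-1.24). In GD21 Ami50 none of 11 was called, all 11 estimates were above 0, and their median was 0.66.

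Genes that work with C1q, Cd74 and Cd68 also rose in the Ami50 pups. Complement genes rose in 9 of 10 tested, including C2 (a protease of the C3 convertase, 8.97-fold), Cd59 (an inhibitor of the membrane attack complex, 2.65-fold) and C1s (a protease of the C1 complex, 2.64-fold). All 4 tested MHC class II genes rose, among them RT1-DMa (3.87-fold) and RT1-DMb (3.22-fold), which load peptide. Lysosomal genes rose in 13 of 17, led by Ctsd (cathepsin D, 3.79-fold). Each of these shares stands beside the 27.1% of all genes that rose. No member of the CSF1 growth-factor list passed the filter at PD16.

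Other cell markers and the adrenal transcripts themselves moved in the same amitrole libraries. The adrenal cortex list summed to 15400 CPM in PD16 Vehicle, 37970 CPM in Ami25 and 41140 CPM in Ami50, with Cyp21a1 3.11-fold and 3.41-fold higher and 4 and 5 of 5 tested genes called higher. Of the medulla genes, 3 of 7 were higher at each dose, Pnmt by 3.29-fold and 3.55-fold, and in Ami50 2 were lower. The testis list summed to 214 CPM in Vehicle, 96.1 CPM in Ami25 and 94.9 CPM in Ami50. On that list Inha, which the adrenal cortex also expresses, was called lower, 2.27-fold in Ami25 and 2.37-fold in Ami50. The listed genes Amh, Insl3, Ddx4 and Sycp3 were at traces in all libraries, as given above. All 6 tested neutrophil genes rose in Ami50, with S100a8 17.8-fold higher, and the summed level of that list was 17.7 to 79.3 CPM in PD16 Vehicle, 110 to 602 CPM in Ami25 and 137 to 1120 CPM in Ami50. All 8 tested red-cell genes rose and all 3 embryonic globins fell. Hepatocyte genes rose in 6 of 7 in Ami50, where the highest library had a summed level of 13570 CPM and the median one 265 CPM, beside 209 CPM in Vehicle. Endothelial genes went the other way, with 5 of 11 lower and none higher, and a summed level of 329 to 502 CPM against 700 to 982 CPM in Vehicle. The lymphatic genes Ccl21 (11.0-fold) and Reln both rose. T, NK and B cell genes summed to 15.2 CPM in Vehicle and 23.7 CPM in Ami50, with Cd3e at 0 in every PD16 library, and the Kupffer-cell list summed to 4.08 to 28.9 CPM in Ami50 against 0 to 5.24 CPM in Vehicle, nearly all of it Cd163 (Clec4f mean 0.632 CPM). The part of these shifts in the macrophage-gene differences was not tested.

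Coherence was then measured between libraries of the same group, after each gene's group mean was removed from its log2 CPM, so that treatment did not set the correlation. Differences between runs of library numbers within a group were not removed, and their part in the pairs was not tested. Only genes averaging at least 10 counts per library entered, and p-values came from 100000 shuffles within groups, adjusted over the pairs of a stage. In the fetuses (30 libraries, 9 genes) 33 of 36 pairs had r above 0, the median r was 0.30 and 13 pairs passed by Pearson's r and 11 by Spearman's rho. In the pups (53 libraries, 7 genes) 18 of 21 pairs had r above 0, the median was 0.22 and 4 passed by either measure. Pairs among all genes were not measured, so these counts have no background and cannot be read as particular to macrophage genes.

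The highest r in the fetuses joined C1qb, C1qc and Tyrobp. C1qa with C1qc did not pass, at r = 0.50 (permutation p = 0.0203, adjusted 0.0522) and rho = 0.33 (p = 0.124, adjusted 0.279). In the fetuses C1qb and Tyrobp had r = 0.79 (permutation p = 0.0001, adjusted 0.00117) and rho = 0.74 (p = 9e-05, adjusted 0.00108). For C1qb and C1qc r was 0.78 (permutation p = 2e-05, adjusted 0.00072) and rho 0.75 (p = 9e-05, adjusted 0.00108). Mrc1 paired with Csf1r at r = 0.71 (permutation p = 0.00013, adjusted 0.00117) and rho = 0.77 (p = 3e-05, adjusted 0.00108). Without the 2 libraries farthest from the median of the first gene these r were 0.69, 0.71 and 0.69. Lyve1 had no called pair among its 8 in the fetuses, Tyrobp and C1qb had 5 each and Mrc1 had 4.

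In the pups 4 pairs were called. C1qb with C1qc gave r = 0.54 (permutation p = 0.00019, adjusted 0.00388) and rho = 0.46 (p = 0.00129, adjusted 0.0135), and C1qc with Tyrobp gave r = 0.48 (p = 0.00037, adjusted 0.00388) and rho = 0.42 (p = 0.00204, adjusted 0.0143). Lyz2 with Tyrobp gave r = 0.44 (permutation p = 0.00105, adjusted 0.00735) and rho = 0.52 (p = 0.00019, adjusted 0.00399), and C1qc with Lyve1 gave r = 0.40 (p = 0.00695, adjusted 0.0365) and rho = 0.38 (p = 0.00752, adjusted 0.0395). Leaving out the 2 farthest libraries gave r of 0.43, 0.43, 0.48 and 0.31. Mrc1 had no called pair among its 6, with r from -0.06 to 0.30, and neither did Csf1r, with r from 0.03 to 0.23. Without the libraries holding liver transcripts, 20 fetal libraries were left, 1 pair passed by Pearson's r and 3 by rho, the median r was 0.26 and the highest 0.77. The parts of liver tissue and of the smaller number of libraries in that loss cannot be told apart. In the pups 4 pairs passed by r and 1 by rho without them (48 libraries). Depth also moved with single genes. The log2 library total had r = 0.54 with C1qc, -0.51 with Mrc1 and -0.37 with Csf1r in the fetuses. In the pups it had r = 0.44 with C1qc and -0.35 with Csf1r. The part of depth in the pairs was not tested.

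**Figure D4:**
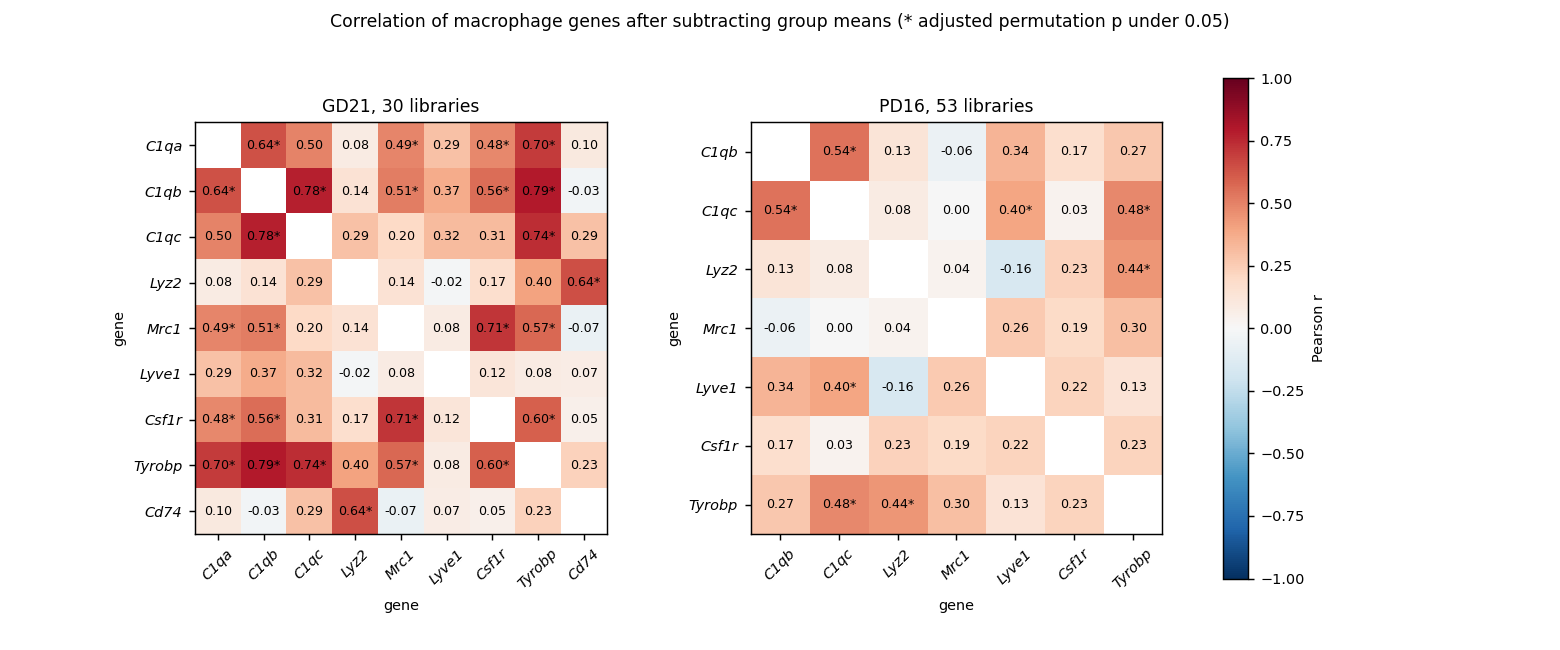
Pearson's r between pairs of macrophage genes over libraries of a stage after removal of group means, for 9 genes in 30 GD21 libraries and 7 genes in 53 PD16 libraries. The highest values join C1qb, C1qc and Tyrobp (0.74 to 0.79 at GD21). At PD16 neither Mrc1 (-0.06 to 0.30) nor Csf1r (0.03 to 0.23) has a called pair.

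The genes outside the list whose group-centred levels were most like the mean of 9 of the members, over all 83 libraries and among 4695 genes, were Tmsb4x (r = 0.75, rho = 0.70), Tubb5 (0.69, 0.65), Tmsb10 (0.62, 0.58), Crip1 (0.62, 0.58), S100a10 (0.59, 0.59), Aif1 (0.58, 0.52), Lgals1 (0.58, 0.55) and Cyba (0.57, 0.53). These values describe libraries that share depth and composition and carry no test. Aif1 (IBA1) is itself a macrophage gene, whereas Tmsb4x encodes the actin-binding thymosin beta 4 of many cell types. Likeness between libraries did not extend to the group means for Tmsb4x, which was at 1637 ± 220 CPM in PD16 Vehicle and 1072 ± 231 CPM in PD16 Ami50. Tubb5 (1941 and 879 CPM), Tmsb10, Lgals1 and Cyba also had lower means in PD16 Ami50 than in PD16 Vehicle. Crip1 (95.1 and 265 CPM), Aif1 and, by little, S100a10 had higher ones.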

How the data were processed

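The authors deposited whole-number counts per gene for 83 libraries, which were used as they stand. Alignment used BWA 0.7.4.4 and rn6, per the submitters' processing notes; the counting tool, annotation, strand and molecular-identifier handling: not given in the sources used here. Groups came from the labels. Tests were edgeR 4.0.16 quasi-likelihood fits (TMM, filterByExpr with a minimum count of 10, robust) in R 4.3.3 with limma 3.58.1, on the whole table, with Benjamini-Hochberg adjustment over 6236 (GD21), 4906 (PD16) or 6287 (both stages) genes and a threshold of 0.05. The 5 groups of a stage were fitted together. The fit was tested on simulated data with known changes. CPM is the count over the library total times 1000000; log2 CPM used a prior count of 2. Alternatives included DESeq2 1.42.0, other filters, comparisons fitted alone, the run of library numbers as a covariate and libraries left out. All 10 members were described; from other lists up to 3 called genes with the largest fold change were eligible to be named, and the 8 genes most like the members. The members and lists were chosen with earlier results of these data known. Intervals were not given for shares, and low counts limit precision through counting error.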

Additional observations from a re-analysis of the deposited data

Results flagged for a closer look

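Single libraries stood apart in 10 of 80 gene-by-group sets of 6 to 10 libraries. The measure was the gap to their nearest neighbour over the group's range (Dixon's ratio). Chance flags about 1 in 20 for normally distributed values, a rate that need not hold for low counts. High libraries were C1qa at 59.9 CPM in GD21 MMI16, C1qc at 78.0 CPM in GD21 Vehicle, Mrc1 at 59.3 CPM in PD16 MMI8, Cd68 at 5.63 CPM in PD16 MMI8, Tyrobp at 52.2 CPM in PD16 MMI16, and Cd74 at 53.1 CPM in GD21 MMI8, 76.5 CPM in GD21 Ami25 and 74.4 CPM in GD21 Ami50. Low libraries were C1qa at 9.6 CPM and Tyrobp at 38.1 CPM, both in GD21 MMI8. Of the 10, 6 were libraries with Alb at 200 CPM or more, and the part of liver tissue in these values was not tested.

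Differences from Vehicle that were unlike between the stages by a test (edgeR, log2 scale, PD16 effect minus GD21 effect) included Mrc1 in MMI16 at -2.99. In Ami50 they were C1qa at 1.36, C1qb at 1.07, C1qc at 1.87, Lyz2 at 1.17, Mrc1 at -1.80 and Lyve1 at 1.05. For Ami50, the treatment and whatever set the embryonic globin share of the pups cannot be told apart. For MMI16, that share went against the PD16 label in the Vehicle and the treated pups.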

How the results depend on the processing

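Mrc1 kept its direction and call against PD16 Vehicle in every alternative that tested it: log2 -2.76 to -2.71 in MMI16, -1.66 to -1.63 in MMI8 and -1.24 to -1.10 in Ami50. Fitting only the compared libraries left 0 macrophage genes called between MMI16 and MMI8, because Mrc1 did not pass the filter. For the same reason it left out C1qa and Cd74 in PD16 Ami25 against Vehicle (7 called) and between the Vehicle stages (6 called), and C1qa in PD16 Ami50 against Vehicle and against MMI16 (8 called in each). Coherent fetal pairs by Pearson's r numbered 1 without libraries holding liver transcripts. With no filter Cd68 was called in 4 comparisons. In edgeR the Ami50 difference between stages for Cd74 also passed when only the compared libraries were fitted (1.08, adjusted p = 0.0411) and without the libraries low in Eif2s3y (1.41, adjusted p = 0.0409). Among marker genes, Alb turned direction in PD16 Ami25 against Vehicle (-0.19 with DESeq2, -0.16 without libraries holding liver transcripts) and, without those libraries, in PD16 Ami50 against Vehicle (-0.14) and between the Vehicle stages (0.10). Cyp11b2 turned without the libraries low in Eif2s3y (-1.57 against Vehicle, -1.59 against MMI16 in Ami50). Apart from Alb, whose libraries were removed by its own level, the cause was not tested. In PD16 Ami50 against Ami25, edgeR called 11 genes without the libraries low in Eif2s3y and 1 with no filter, against 0. The edgeR fit with older dispersion settings was added after seeing the data. No paired analysis was possible because library numbers are unique to a library and shared by no groups. Cd68 and, at PD16, C1qa and Cd74 are limited by depth.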
